A study of Mus musculus with 8 samples.

Results

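Cardiac precursors (CP, day 5.3) were compared with mesoderm (MES, day 4) as mouse embryonic stem cells were steered towards heart muscle in culture. The comparison took in 4 of the 8 RNA-seq libraries of the series, 2 of each stage, through 2 of the 4 columns of a table with 1 RPKM value (reads per kilobase of gene per 1000000 reads) per gene and stage. All 13540 genes of the table were members, and the difference of a gene was log2(RPKM + 1) in CP minus that in MES. With 1 value per stage there was no spread between replicates, no test and no p-value, so a gene was counted as higher or lower when it was at least 2-fold apart on this scale.

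All stages came from stem cells of the 129/Ola strain and shared 1 culture scheme, with no transgene, mutation or sort named in the labels. Cells grew as embryoid bodies, floating aggregates, without serum for 2 days and were reaggregated for 40 h with VEGF, Activin A and BMP4, which drive mesoderm formation. After that they were grown on plates, and the medium held VEGF together with basic FGF and FGF10. The 2 days and 40 h end shortly before the day 4 of MES, and CP at day 5.3 came later on plates. Stage thus cannot be told apart from the change of added factors or from growth on plates. The labels call the MES libraries mesodermal cells and the CP libraries cardiac precursors, and the remaining stages, given below only as context, were embryonic stem cells (ESC, day 0) and cardiomyocytes (CM, day 10). Unsorted cultures mix cell types, and in such bulk samples fewer cells of a type and less RNA per cell cannot be told apart.

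Mesoderm forms in the primitive streak of the embryo under WNT, NODAL, BMP and FGF signals, and the cells leave the streak through an epithelial-to-mesenchymal transition. Heart precursors arise from the earliest of these cells, which pass through a phase of MESP1 expression. They then switch on a core of cardiac transcription factors (NKX2-5, GATA, MEF2, TBX5, HAND and the cofactor MYOCD) and are known to need lowered WNT signalling to go on to muscle.

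Of the 13540 genes, 1207 (8.91%) had a value in CP at least 2-fold above that in MES and 529 (3.91%) one at least 2-fold below it, and the median difference over all genes was -0.03. Members of the sarcomere, endothelial and blood lists made up 91 of the higher and 2 of the lower genes, and 1116 higher genes (92.5%) lay outside these standard classes. The 3 lists have only 43, 42 and 31 genes in the table, so nearly all genes lie outside them. Of these members 35, 34 and 24 were higher, shares far above the 8.91% of all genes. The shares of 8.91% and 3.91% are the background for each count of a list given below. At least 16-fold apart were 57 higher and 11 lower genes. The depth estimated from the values was 62.0 M reads in MES and 64.8 M in CP (1 M is 1000000), and 3 reads on a 2 kb gene equalled 0.0242 and 0.0232 RPKM. Whole reads could be recovered for 1680 of the 1736 genes at least 2-fold apart. In 1677 of them the exact 95% interval of the CP to MES ratio, scaled for depth, left out equal levels. The same values had chosen these genes. A gene at least 2-fold apart has at least 1 RPKM in 1 stage, which on 2 kb is 124 reads in MES and 130 in CP. The outcome was thus nearly fixed in advance. These intervals cover counting error only, and not the spread between cultures.

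**Figure D1:**
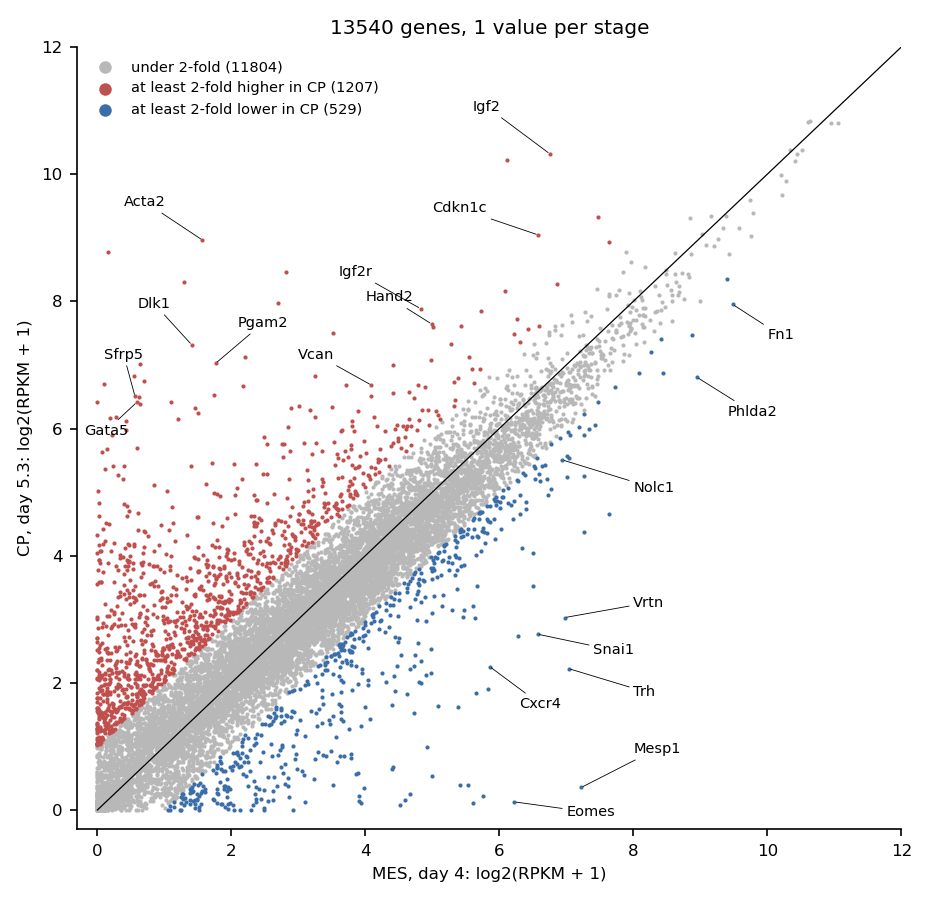
log2(RPKM + 1) in MES (x axis) against CP (y axis) for 13540 genes, 1 point per gene, with the 1207 genes at least 2-fold higher in CP in red, the 529 at least 2-fold lower in blue and the rest in grey; the line marks equal levels. Mesp1 (148 against 0.278 RPKM) and Eomes lie near 0 on the CP axis, Acta2, Dlk1 and Sfrp5 lie far above the line at low MES values, and Igf2 is high in both stages and higher in CP.

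The labels could be set against markers. Of 12 primitive streak and early mesoderm markers, 9 were at least 2-fold lower in CP, none was higher, and their summed level was 612 RPKM in MES and 159 in CP. Mesp1 (ENSMUSG00000030544), a transcription factor of the earliest cardiac mesoderm, stood at 148 RPKM in MES and 0.278 in CP. The T-box factors Eomes (ENSMUSG00000032446) and T (ENSMUSG00000062327), which pattern the streak, stood at 73.7 against 0.0929 and 53.2 against 0.16 RPKM. Kdr (63.2 against 53.4) and Pdgfra (48.3 against 54.4), receptors of mesoderm with cardiac potential, were under 2-fold apart. Of 12 cardiac precursor markers, 11 were higher in CP, with a summed level of 114 RPKM in MES and 1198 in CP. The exception was Gata4, already at 50.7 RPKM in MES and 53.2 in CP.

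Markers of other cell types moved as well. The 8 endothelial markers summed to 1.76 RPKM in MES and 302 in CP, with 7 of 8 at least 2-fold higher and Emcn listed at 0 in MES. The 8 blood markers summed to 4.7 and 255 RPKM, with 7 of 8 higher and Hba-x listed at 0 in MES. Of 5 smooth muscle markers, 4 were higher (summed levels 19.7 and 593 RPKM). Of 8 endoderm markers, 4 were lower and 1 was higher, with summed levels of 243 and 251 RPKM that rest mostly on the keratins Krt8 and Krt18. Of 6 paraxial mesoderm markers, 4 were lower (89.5 and 27.4 RPKM), and of 6 pluripotency markers 2 were lower (86.6 and 10.3 RPKM, with Pou5f1 at 76.4 against 5.65). Of 6 macrophage markers only Cd68 was in the table, at 2.0671 against 1.98 RPKM. Of 7 epicardial markers 4 were higher and 1 was lower (median 1.61, summed levels 52.4 and 37.4 RPKM). The higher ones were Krt19 (5.88 against 19.96), Tcf21 (1.25 against 10.1), Upk1b (0 against 3.6) and Upk3b (0.0344 against 3.28), the lower one was Aldh1a2, and Wt1 (0.0417 against 0.147) and Msln (listed at 0 in both stages) were under 2-fold apart. The summed levels of endothelial, blood and smooth muscle markers moved in the same direction as every rise given below, and their part in those rises was not tested.

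Outside the standard lists, and leaving out genes named only by clone or model numbers and histone genes, the 25 genes with the largest falls held 5 of the streak markers, Mesp1, Eomes, T, Evx1 and Mixl1, beside genes of several other kinds. Besides Mesp1, Eomes and T they held the homeobox factors Evx1 (from 41.6 to 0.308 RPKM) and Mixl1 (from 21.9 to 0.0541), the zinc finger factors Zic2 (from 40.7 to 2.08) and Sp5 (from 49.5 to 2.59), and Mesp2 (from 14.3 to 0.0797). Snai1, a repressor that drives the epithelial-to-mesenchymal transition, went from 94.1 to 5.8 RPKM. Secreted or surface proteins among them were the inhibitors Cer1 and Fst, the Notch ligands Dll1 and Dll3, the protocadherins Pcdh8 and Pcdh19, the adhesion protein L1cam, the chemokine receptor Cxcr4 and the ligands Wnt3 and Fgf3. Trh, the precursor of thyrotropin-releasing hormone, went from 130.2 to 3.67 RPKM, and it was highest in ESC (256). Vrtn, a nuclear protein, went from 125 to 7.15 RPKM, and Coch, a secreted matrix protein, from 20.3 to 0.597. Aldh1a2, the main enzyme of retinoic acid synthesis in the embryo, went from 45.2 to 0.307 RPKM.

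The 25 largest rises fell into 4 kinds of gene. Cardiac transcription factors were Gata5 (from 0.503 to 84.2 RPKM), Nkx2-5 (from 1.3 to 70.1), Nkx2-6 (from 0.175 to 41.4), Mef2c (from 1.83 to 74.6) and the cofactor Myocd (from 0.313 to 41.4). Muscle genes outside the sarcomere list were the smooth muscle actin Acta2 (from 1.96 to 498), the light chain Myl9 (from 3.61 to 139), the small heat shock gene Hspb2 (from 0.125 to 21.7), Jph2, which ties the cell membrane to calcium stores (from 0.561 to 82.6), Hrc, a calcium store protein (from 0.355 to 23.7), the pacemaker channel Hcn4 (from 0.791 to 33.6), Popdc2, a membrane protein of heart muscle (from 0.163 to 58.3), and the ubiquitin ligase parts Asb2 (from 0.0137 to 27.5) and Trim55 (0 to 19). Secreted or growth-linked genes were the WNT inhibitor Sfrp5 (from 0.476 to 89.8), the imprinted Dlk1 (from 1.65 to 158) and Pyy, which encodes the gut hormone peptide YY (from 0.14 to 70.9). The remaining kind was made of enzymes and adaptors: Pgam2, the muscle form of a glycolytic mutase (from 2.4 to 129), the transglutaminase Tgm2 (from 0.354 to 26.5), the kinase Alpk2 (from 0.0554 to 20.3), the kinase anchor Sphkap (from 0.0806 to 40.1), and Rcsd1 (from 1.13 to 84.4), Sh3bgr (from 0.304 to 35.9), Ccdc141 (from 0.098 to 21.8) and Ctla2a (from 0.234 to 37.5). Ctla2a shares 36.2% of its 32-base words with transcripts of other genes, so reads could be split between copies.

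Of these genes, 3 were high in CP alone among the 4 stages. Pyy was at 0.0462 RPKM in ESC and 0.845 in CM, with 5 reads in MES and 2642 in CP. Sfrp5 was at 1.77 RPKM in ESC and 0.0951 in CM, with 28 and 5528 reads. Nkx2-6 behaved alike, at 0 RPKM in ESC and 1.4 in CM. They were singled out after their values were seen.

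Promoters are shown for the falling and rising genes that hold a site for a factor of the same events. LEF/TCF proteins carry the WNT signal to DNA, and the word CTTTGAT was searched on both strands from 250 bases before to 50 after the RefSeq start. Its variants CTTTGAA and CTTTGTT were counted as well, and the 3 words cannot overlap on 1 strand. Sequences were matched for 10218 of the 13540 genes (75.5%), and the first promoter listed was used. At least 1 of these words stood in 7 of the 21 promoters found for the 25 largest falls (33.3%) and in 0 of the 17 found for the 25 largest rises. It stood in 12.4% of 372 promoters of genes at least 2-fold lower, 7.49% of 881 of genes at least 2-fold higher and 9.12% of all. Of the list of WNT target and feedback genes, 8 promoters were found, and 1 of them held a word (12.5%). The 14 motifs that were searched were chosen with the values known, so these shares are descriptions with no test.

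The 6 genes with the largest falls among them were Mesp1, T, Trh, Pcdh8, Sp5 and Wnt3. The 250 bases before the start are printed for the first 5 (RefSeq, GRCm38.p6), 5′ to 3′ on the gene's strand, with the words in capitals; in Wnt3 the word lay after the start, and no sequence is shown.
Mesp1, chr7:79793591-79793840, strand -: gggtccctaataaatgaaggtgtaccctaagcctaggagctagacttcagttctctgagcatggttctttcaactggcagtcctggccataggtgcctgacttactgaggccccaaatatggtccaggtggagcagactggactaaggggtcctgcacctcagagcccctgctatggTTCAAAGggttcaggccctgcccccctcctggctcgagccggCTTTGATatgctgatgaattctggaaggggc
T, chr17:8434173-8434422, strand +: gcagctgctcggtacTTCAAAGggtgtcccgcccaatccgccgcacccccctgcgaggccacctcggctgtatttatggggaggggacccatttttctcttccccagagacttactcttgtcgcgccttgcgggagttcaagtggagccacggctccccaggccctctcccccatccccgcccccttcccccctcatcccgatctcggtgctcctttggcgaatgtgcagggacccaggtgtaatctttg
Trh, chr6:92244651-92244900, strand -: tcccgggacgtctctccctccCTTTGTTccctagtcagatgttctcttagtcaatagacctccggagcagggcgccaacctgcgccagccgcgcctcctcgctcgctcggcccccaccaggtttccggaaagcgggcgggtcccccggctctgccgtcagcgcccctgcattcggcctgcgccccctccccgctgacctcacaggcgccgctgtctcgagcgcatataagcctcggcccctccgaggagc
Pcdh8, chr14:79771313-79771562, strand -: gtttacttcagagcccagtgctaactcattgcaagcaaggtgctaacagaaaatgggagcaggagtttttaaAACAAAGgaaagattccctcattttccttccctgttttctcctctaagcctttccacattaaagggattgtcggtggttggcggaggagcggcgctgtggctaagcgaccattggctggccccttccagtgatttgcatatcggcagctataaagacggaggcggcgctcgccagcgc
Sp5, chr2:70474673-70474922, strand +: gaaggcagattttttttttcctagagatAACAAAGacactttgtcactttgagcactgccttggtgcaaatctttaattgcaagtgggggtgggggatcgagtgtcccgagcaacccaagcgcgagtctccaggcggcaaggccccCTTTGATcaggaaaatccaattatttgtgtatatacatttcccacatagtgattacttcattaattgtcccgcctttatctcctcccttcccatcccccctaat
Mesp1 held 2 words, 73 and 31 bases before its start, and Sp5 held 2, at 222 and 104 bases before. T, Trh and Pcdh8 held 1 each, at 235, 229 and 178 bases before. In capitals, TTCAAAG and AACAAAG are the same words read on the opposite strand.

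SRF binds the CArG box, and MYOCD, the cofactor that rose, acts through SRF at smooth and cardiac muscle genes. The box stood in 2.04% of promoters of genes at least 2-fold higher, 1.08% of lower genes and 1.37% of all. It stood in 2 of the 17 promoters found for the 25 largest rises (Myl9 and Asb2) and in 2 of the 21 found for the 25 largest falls (Mesp1 and Mesp2). Stretches around the box are printed with the box in capitals.
Myl9, chr2:156775258-156775357, strand +: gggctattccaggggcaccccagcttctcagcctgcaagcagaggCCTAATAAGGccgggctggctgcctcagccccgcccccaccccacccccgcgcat
Asb2, chr12:103356011-103356110, strand -: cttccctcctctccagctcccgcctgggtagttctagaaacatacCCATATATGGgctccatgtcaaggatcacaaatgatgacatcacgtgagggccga
Mesp1, chr7:79793674-79793773, strand -: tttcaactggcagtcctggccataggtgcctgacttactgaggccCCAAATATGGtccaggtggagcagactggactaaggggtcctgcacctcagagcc
Mesp2, chr7:79810477-79810564, strand +: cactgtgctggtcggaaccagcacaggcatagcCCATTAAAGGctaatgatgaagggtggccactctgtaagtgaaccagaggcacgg
The box lay 161 bases before the start in Myl9, 64 in Asb2, 138 in Mesp1 and 217 in Mesp2, and so it was found in promoters of both directions.

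The other motifs differed in share to varying degrees. AGATAA, a word that GATA factors bind, stood in 10.4% of higher, 4.03% of lower and 6.07% of all promoters. The MEF2 site stood in 3.06%, 0.538% and 1.59%, and GGAATG, a word of TEAD factors, in 17.3%, 10.5% and 11.9%. CCGGAAGT, a word of ETS factors common in promoters of housekeeping genes, stood in 1.25% of higher, 4.57% of lower and 8.13% of all. TATAAA, the TATA box, stood in 9.76% of higher, 8.06% of lower and 6.88% of all. TGACAG, which MEIS proteins bind, stood in 20.2%, 11.6% and 16.1%. Of lower promoters 5.11% held an NKX2 word (CACTTAA or CACTTGA) and 2.15% a T-box word (AGGTGTGA or AGGTGTTA), of higher ones 3.06% and 1.25%, and of all 3.6% and 1.08%. The FOX word TGTTTAC stood in 2.61% of higher, 2.42% of lower and 2.50% of all, and FOXH1 words (AATACACA or AATCCACA) in 1.25%, 1.08% and 0.969%. A match says only that these letters lie in the window.

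WNT genes were lower in CP at several levels of the pathway. Of 14 WNT ligands and R-spondins in the table, 7 were at least 2-fold lower and 1 was higher, with a median difference of -0.84. Wnt3 (the ligand that starts the streak), Wnt2b, Rspo3 and Wnt8a went from 20.02 to 0.567, from 12.8 to 0.769, from 23.6 to 2.56 and from 6.25 to 0.15 RPKM. Wnt3a and Wnt5b were lower too. The ligand Wnt11, which signals without beta-catenin, was the exception at 1.09 RPKM in MES and 5.79 in CP. Wnt2 (17.6 against 25.8) and Wnt5a (14.3 against 17.6) were under 2-fold apart, so ligands did not all move one way.

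Of 13 genes that WNT signalling is known to switch on or that feed back on it, 9 were lower and none higher (median -1.65). The feedback inhibitors Axin2 and Nkd1 went from 24.3 to 3.66 and from 47.7 to 8.25 RPKM, the transcription factor Lef1 from 21.2 to 3.79, the inhibitor Apcdd1 from 30.7 to 4.78 and the cell cycle gene Ccnd1 from 78.1 to 24.3. Bambi (19 against 29.4) and Tnfrsf19 (19.995 against 17.9) were among the 4 under 2-fold. The 11 secreted inhibitors were divided, with 5 lower and 2 higher. Cer1 went from 47.9 to 0.0791 RPKM, Dkk1 from 18.7 to 5.97, Frzb from 27.4 to 8.68, Sfrp2 from 18.8 to 7.86 and Notum from 2.34 to 0.114, while Sfrp5 went from 0.476 to 89.8 and Sost 0 to 10.8. Of 24 receptors and their partners, 3 were lower and 2 higher, where 3.91% and 8.91% of all genes were. Among them Fzd10 went from 8.67 to 1.5 and Lgr5 from 3.05 to 0.0588, while Fzd4, a receptor also known from endothelium, went from 3.9 to 23.6.

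**Figure D2:**
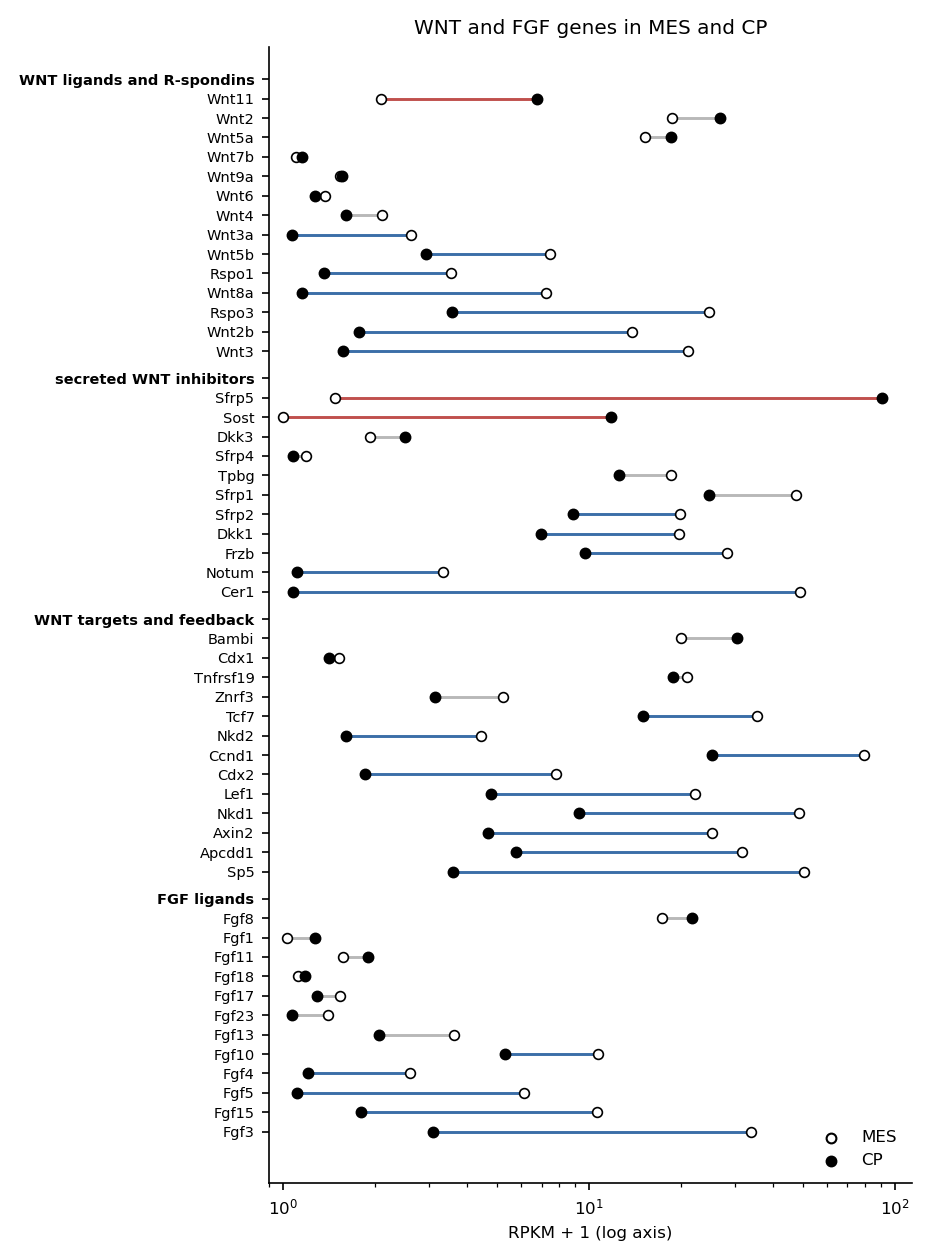
RPKM + 1 on a log axis in MES (open circles) and CP (filled circles) for the WNT ligands, secreted WNT inhibitors, WNT targets and FGF ligands in the table, 1 row per gene, with red or blue bars where the stages are at least 2-fold apart. Most ligands and targets move left in CP, with Wnt11 to the right, and Sfrp5 and Sost move right among inhibitors that otherwise move left or little.

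FGF ligands were lower or little changed; basic FGF and FGF10 themselves were in the medium of the plated cells. Of 12 ligands 5 were lower and none higher (median -0.60). Fgf3, Fgf15, Fgf5 and Fgf4 went from 32.9 to 2.1, from 9.66 to 0.802, from 5.12 to 0.111 and from 1.6 to 0.209 RPKM, and Fgf10 from 9.68 to 4.33. Fgf8, a ligand of the streak and of the heart-forming region, stood at 16.3 and 20.7. Receptors and coreceptors were divided, 4 of 16 higher and 3 lower, with Fgfr1 at 68.3 against 38.6, Fgfr2 at 5.29 against 1.71 and Fgfr3 at 3.91 against 12.5. Dusp6, a feedback phosphatase of the ERK pathway, went from 23.5 to 62.7 RPKM, while Spry2 was under 2-fold apart (44 against 35.4).

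NODAL pathway genes were lower in 7 of 17 and higher in 1 (median -0.54). The ligand Nodal went from 2.74 to 0.523 RPKM, the inhibitor Lefty2 from 8.45 to 0.396 and the target Gsc from 4.45 to 0.131. Nodal and Lefty2 had been far higher in ESC, at 42.4 and 62.6. Foxh1, the DNA-binding partner of the pathway, stood at 139.6 against 74.7 RPKM, and Cfc1, its coreceptor, at 54.8 against 49.2, both under 2-fold apart. Furin, a protease that cuts ligand precursors, was the higher member (from 7.87 to 25.1).

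BMP ligands held their level. Of 14 BMP and GDF ligands, 1 was at least 2-fold higher (Bmp5, from 12.5 to 26.7 RPKM) and none lower, with Bmp4 at 42.8 against 61.8 and Bmp7 at 24.4 against 37.6. Receptors and targets were divided, 5 of 17 higher and 4 lower. The homeobox targets Msx1 and Msx2 went from 89.2 to 15.4 and from 34.5 to 8.21 RPKM and Hand1 from 172 to 65.8, while Id2, a further target, went from 16 to 90.2 and Tbx20 from 12.9 to 41.9. Acvrl1 (from 0.335 to 13.4) and Eng (from 2.61 to 21), receptors known from endothelium, were also higher. Among TGF-beta genes 5 of 20 were higher and 2 lower, where 8.91% and 3.91% of all genes were. The largest rise was that of the ligand Tgfb2, which acts in the endocardial cushions (from 5.89 to 53.3).

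Notch genes moved in opposite directions. The ligands Dll1 and Dll3, which act in the streak and in somites, went from 30.8 to 0.447 and from 55.8 to 2.76 RPKM, and Lfng, a sugar transferase that tunes the receptors, from 27.6 to 2.98. Dll4 and Notch4, known from blood vessels, went from 0.115 to 4.53 and from 0.618 to 4.55, and Jag2 from 2.18 to 9.03. Dlk1, a Notch-like membrane protein, is described with the imprinted genes.

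Retinoic acid genes moved by their step in the pathway. Aldh1a2, the synthetic enzyme, was lower (from 45.2 to 0.307 RPKM), and Cyp26a1, which breaks the acid down, was under 2-fold apart (48 against 24.3). The receptor Rarb, itself a known target, went from 0.818 to 11.1 RPKM, the binding protein Crabp2 from 11.9 to 49.2 and Dhrs3, which reduces retinal, from 0.105 to 2.25. Rxrg, a partner receptor, went from 2.69 to 0.296. These members are few, 11 in each of the 2 retinoid lists, with 2 higher and 2 lower in the first and 1 and 1 in the second.

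Hedgehog genes were lower in 3 of 16 and higher in 1, where 3.91% and 8.91% of all genes were. Gas1, a coreceptor, went from 79.6 to 16.4 RPKM and the ligand Shh from 1.84 to 0.315, while the signal transducer Smo (73.3 against 46) and the transcription factor Gli3 (14 against 9.7) were under 2-fold apart. Of 17 PDGF, EGF and neuregulin genes 3 were higher and none lower. These were the ligand Pdgfb (from 0.924 to 9.77), the receptor Kit (from 3.74 to 15.3), known from blood cells among others, and Nrg1, a ligand of the endocardium (from 1.013 to 3.3). In the Hippo pathway, which limits growth and acts through YAP, WWTR1 and TEAD proteins, 6 of 25 genes were higher and 2 lower. The target Ankrd1 went from 0.0183 to 14.3 RPKM and reached 544 in CM. The cofactor Wwtr1 went from 7.37 to 21.6, while Yap1 (84.8 against 60.3) and Tead2 (107 against 84.1) were under 2-fold apart.

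Receptors for migration and guidance cues were divided as well. Cxcr4, which guides mesoderm migration, went from 56.9 to 3.77 RPKM. Of 17 Slit, Robo, netrin and FLRT genes, 5 were lower, with Robo3 (from 13.5 to 0.475), Slit1 (from 11.8 to 0.799) and Ntn1 (from 6.19 to 0.294), and 3 were higher, among them Robo2 (from 0.50 to 3.93) and Flrt2 (from 1.49 to 6.52). Of 17 ephrin and Eph receptor genes, 4 were higher, with Efna1 (from 5.71 to 22.2) and Ephb1 (from 1.26 to 6.46), and 3 were lower, with Efna3 (from 26.8 to 3.06) and Epha1 (from 10.1 to 1.55). Of 28 semaphorin, plexin and neuropilin genes, 4 were higher, led by Plxnd1 (from 8.53 to 71.5), a receptor of vessel growth, and 2 were lower. The median differences of the Slit, ephrin and semaphorin lists were 0.02, 0.12 and -0.08. Among all genes 8.91% were higher and 3.91% lower, so these lists had no clear direction. Among 27 endothelin, adrenergic and other G protein coupled receptor genes, 9 were higher and none lower, with Gpr124 (from 6.38 to 79.5), Ece1, which makes active endothelin (from 11.5 to 62.2), Agtr1a (from 0.393 to 5.58) and Ednra (from 1.05 to 8.64). Gpr124, Plxnd1 and S1pr1 (from 1.89 to 10.2) are known from endothelium, and the 42 genes of the endothelial list summed to 136 RPKM in MES and 789 in CP.

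The insulin-like growth factor axis was higher at the levels of ligand and receptor. Of its 16 members, 7 were at least 2-fold higher and 1 was lower (median 0.71). Igf2 (ENSMUSG00000048583), the main growth factor of the embryo, stood at 107 RPKM in MES and 1277 in CP, and at 25.5 in ESC and 1165 in CM. Its value in CP was 11.9 times that in MES. The clearance receptor Igf2r went from 27.3 to 235 RPKM, the signalling receptor Igf1r from 13.4 to 40.6 and the second ligand Igf1 from 0.0228 to 5.05. Of 5 binding proteins, Igfbp4 (from 115 to 309) and Igfbp5 (from 8.2 to 47.4) were higher and Igfbp2 (from 42.7 to 18.8) was lower. The RNA-binding proteins Igf2bp1 (87 against 53.8) and Igf2bp3 (42.8 against 42.3) were under 2-fold apart. In GENCODE M21 61.9% of the 32-base words of Igf2 also lie in another gene's transcripts, so its reads may include those of an overlapping gene.

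Imprinted genes, which are read from the copy of 1 parent and often control growth, were higher as a group by count. Of 32 in the table, 13 were at least 2-fold higher and 1 was lower (median 0.70), where 8.91% and 3.91% of all genes were. Dlk1 (ENSMUSG00000040856), a membrane protein that restrains differentiation, went from 1.65 to 158 RPKM (244 and 24431 reads), the long noncoding H19 from 8.46 to 112, the cell cycle inhibitor Cdkn1c from 94.6 to 527, Mest from 52 to 228 and the noncoding Meg3 from 10.7 to 42.1. Grb10, an adaptor that dampens insulin and IGF receptors, went from 75.6 to 209.5. Phlda2, which restrains placental growth, was the single lower member (from 494 to 111), although it lies in the same imprinted cluster as Cdkn1c. Peg3 (153 against 139.6), Slc38a4 (104 against 137) and Gnas (93.1 against 145) were high in both stages and under 2-fold apart. The strand of the reads is not given, and exons of an opposite-strand gene cover 30.7% of Cdkn1c exon bases. Airn, a noncoding RNA read against Igf2r and named after its value was seen, went from 0.799 to 15.9 RPKM, so some of its reads and those of Igf2r may not be told apart.

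**Figure D3:**
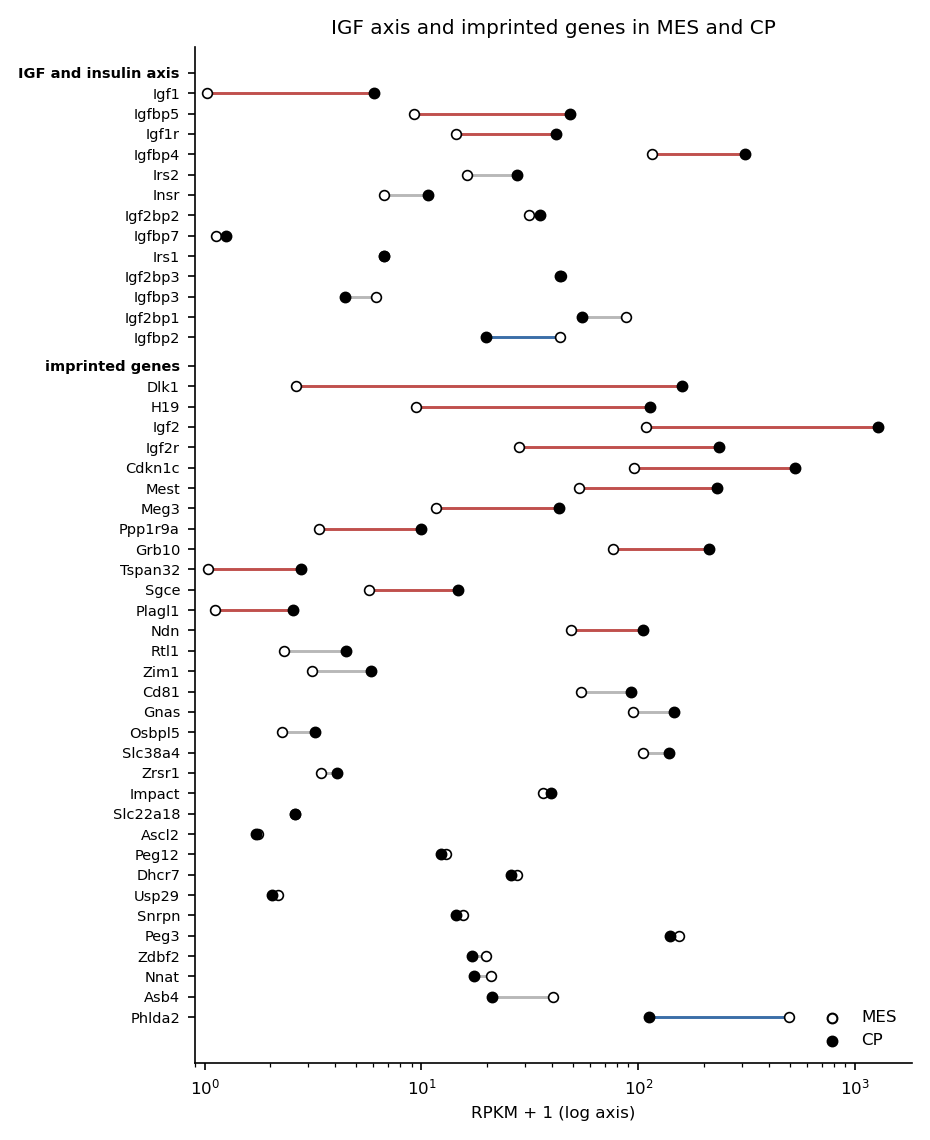
RPKM + 1 on a log axis in MES (open circles) and CP (filled circles) for the 13 IGF axis genes that are not imprinted and the 32 imprinted genes in the table, with red or blue bars where the stages are at least 2-fold apart. The longest bars to the right belong to Dlk1, H19, Igf2 and Igf2r, and Phlda2 is the only imprinted gene with a blue bar.

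Enzymes that write or remove DNA methylation were divided. Of 8 TET, DNMT and UHRF1 genes, Tet2 (from 1.62 to 7.31 RPKM) and Tet3 (from 7.96 to 21.2) were higher and Dnmt3b (from 51.6 to 24.6) was lower. Dnmt1 (80.9 against 71.2) and Dnmt3a (15 against 19.4) were under 2-fold apart. These enzymes were named after their values were seen.

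MicroRNA genes gave values although the libraries were made from poly(A) RNA of longer fragments, so these values stand for precursor transcripts and not for mature microRNAs. Of 28 rows named as microRNA genes, 8 were at least 2-fold higher and 5 lower; they were examined after the values were known. These genes are far shorter than 2 kb, so values at or under 1.87 RPKM rest on few reads here and lie near the floor. Mir145 and Mir143, a pair known from smooth muscle, went from 0.55 to 7.54 and from 0.256 to 3.19 RPKM. Of the 8 higher genes, 4 (Mir410, Mir337, Mir341 and Mir1188) lie within 500 kb of Meg3, and Mir483 lies inside Igf2 (from 2.43 to 6.98). Meg3 and Igf2 were higher as well. In the cluster that marks pluripotent cells, Mir295 went from 1.87 to 0, Mir294 from 1.34 to 0, Mir293 from 1.82 to 0.193 and Mir291b from 1.43 to 0.195. These had stood at 38.9, 17.2, 17.6 and 25.7 RPKM in ESC. The 3 mature RNAs of this cluster with a common seed are shown, bases 2 to 8 in capitals (RefSeq, GRCm38.p6).
mmu-miR-291a-3p, chr7:3218968-3218989, strand +: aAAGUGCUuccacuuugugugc
mmu-miR-294-3p, chr7:3220691-3220712, strand +: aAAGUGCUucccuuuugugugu
mmu-miR-295-3p, chr7:3220815-3220837, strand +: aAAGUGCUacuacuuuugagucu
The rows of this cluster were thus highest in ESC, at or under 1.87 RPKM in MES and at or near 0 in CP.

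Transcription factor families split by position and lineage. Of 10 Hox genes, which give cells their position along the body axis, 7 were at least 2-fold higher and none lower (median 1.14). Every gene of the table exceeds 1 RPKM in at least 1 stage. A member that passed through CP alone has a higher value in CP by that filter, so these counts may be tilted towards rises. Hoxb4 went from 0.34 to 4.46 RPKM (45 and 617 reads). The exact 95% counting interval of its RPKM ratio, CP over MES, was 9.68 to 18.2. That interval covers counting error only, and Hoxb4 was named for the size of its change in these same values. Hoxb5 went from 0.135 to 2.61, Hoxb3 from 8.44 to 20.1 and Hoxb2 from 13.4 to 30.4. Hoxb1, the first of its cluster, stood at 24.1 against 14.6, the only member with a lower value in CP. Hoxd3 (from 0.0833 to 1.61) shares 61.1% of its 32-base words with another gene. In CM the same 10 genes were low again, with a median log2 level of 0.53 against 2.34 in CP and 1.08 in MES.

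Among TALE homeobox genes, partners of Hox proteins and the Irx group, 5 of 17 were higher and 1 lower. Meis1 went from 4.35 to 23 RPKM, Meis2 from 3.67 to 12, Irx2 from 4.07 to 30.1, Irx3 from 20.2 to 53.6 and Irx4, known from ventricular muscle, from 0.32 to 5.58. T-box factors changed hands. Eomes, T, Tbx6 (from 13.8 to 0.504) and Tbx3 (from 43.4 to 7.85) were lower, Tbx5 (from 0.44 to 9.997) and Tbx20 (from 12.9 to 41.9) were higher, and Tbx2 was under 2-fold apart (7.78 against 11.3). Of 28 forkhead genes 7 were lower and 1 higher. Foxf1a, a factor of lateral mesoderm, went from 89.9 to 10.4 RPKM, Foxa2, of endoderm and axial mesoderm, from 6.88 to 0.561, and Foxd4 4.63 to 0.

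Factors and cofactors of the GATA, MEF2 and SRF group were higher in 11 of 25 and lower in none (median 0.96). Beyond Gata5, Mef2c and Myocd, the chromatin regulator Smyd1 went from 0.0671 to 103 RPKM. Srf (45.3 against 78.4) and the GATA cofactor Zfpm1 (56.7 against 111) were expressed in both stages and under 2-fold apart. Among 35 bHLH genes, 6 were higher and 8 lower. Hand2 went from 30.8 to 199 RPKM while Hand1 went from 172 to 65.8, so the 2 cardiac Hand factors moved in opposite directions. Lyl1, a blood and vessel factor, went from 0.458 to 17.1, and Msgn1, a factor of paraxial mesoderm, 6.58 to 0. Of 41 other homeobox genes 10 were higher and 13 lower, and Hopx, a small homeobox protein of the heart, went from 0.58 to 13.5. Of 13 Sox genes 3 were higher, with Sox18 (from 0.349 to 62.1) and Sox7 (from 1.04 to 15.3), known from vessels, and 1 was lower, Sox9 (from 10.9 to 1.21). Of 21 Kruppel-like and Sp factors 4 were higher, with the blood factor Klf1 (from 0.233 to 6.43) and the vessel factor Klf2 (from 0.996 to 6.72), and 4 were lower, with Sp5 and Sp8 (from 4.17 to 0.125). Of 29 nuclear receptors 5 were higher and 2 lower (median 0.01), where 8.91% and 3.91% of all genes were. Among the higher were Nr2f2 (from 0.388 to 3.99), known from atria and veins, and Esrrg (from 0.208 to 3.98), a regulator of oxidative metabolism. Of 29 immediate-early and AP-1 genes, which answer fast to growth signals, 7 were higher and none lower, with Gadd45g (from 5.2 to 30.2) and Atf3 (from 0.496 to 4.5), while Egr1 (94 against 56.3) was under 2-fold apart.

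Of 314 zinc finger genes named Zfp, 11 were higher and 4 lower with a median of 0.00, below the shares of all genes.

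**Figure D4:**
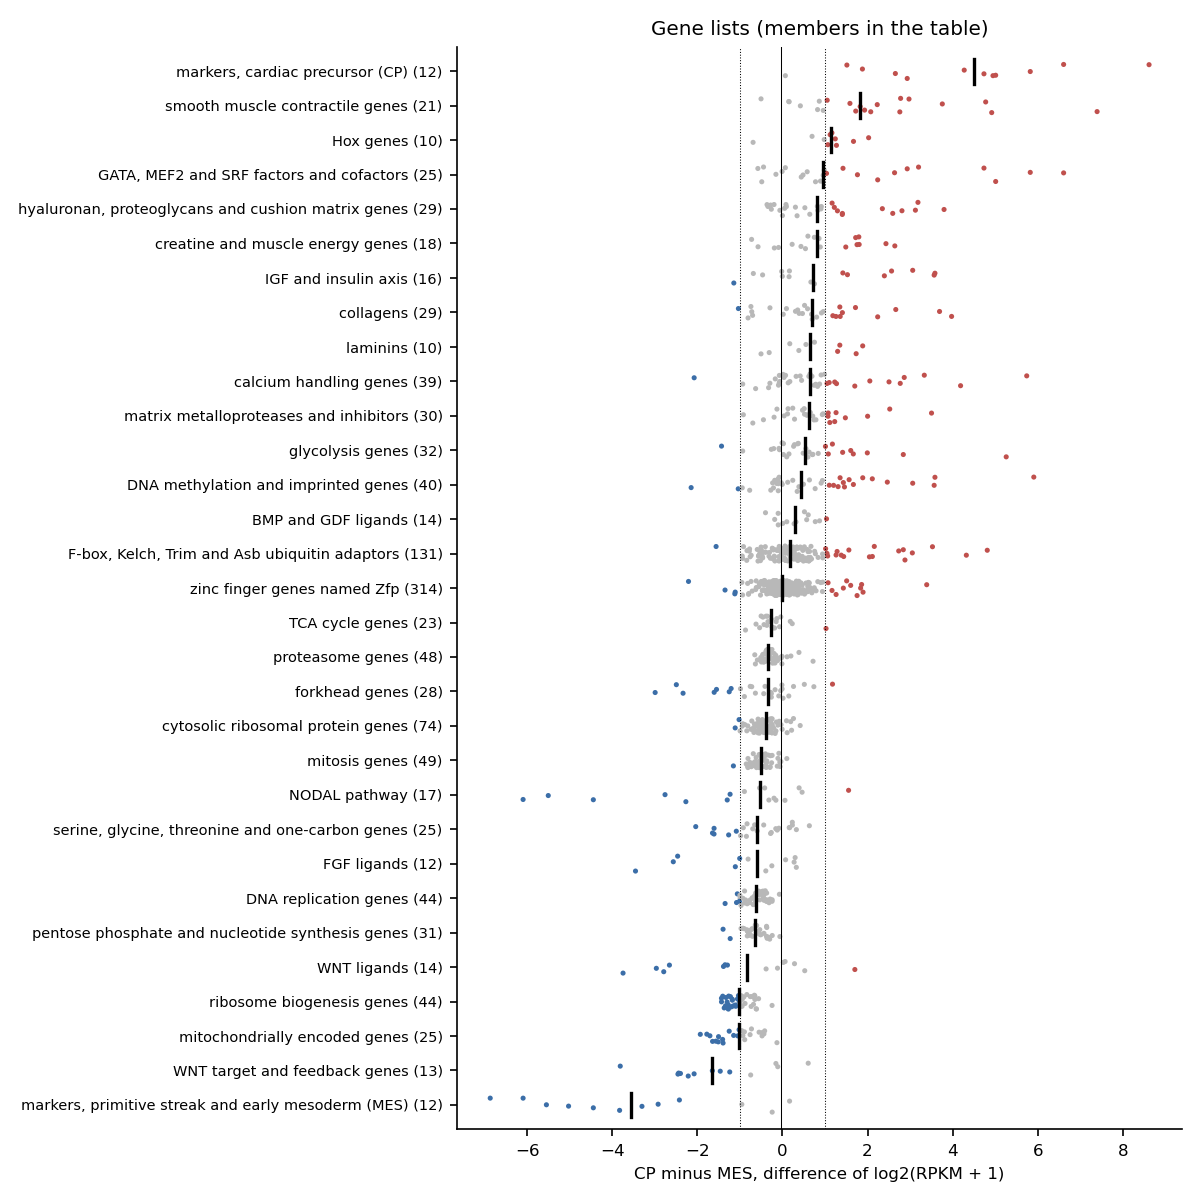
Difference of log2(RPKM + 1), CP minus MES, for the members of 31 gene lists, 1 point per gene, with the median of each list as a black bar, dotted lines at a 2-fold difference and a thin line at the median of all genes (-0.03). Lists run from streak markers and WNT targets at the bottom to smooth muscle and cardiac precursor markers at the top, and ribosome biogenesis genes form a tight cloud to the left of 0.

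Genes of the hyaluronan, collagen and laminin lists of the extracellular matrix were more often higher than lower. Of 29 hyaluronan, proteoglycan and cushion matrix genes, 11 were at least 2-fold higher and none lower (median 0.82). Hapln1, which links hyaluronan to proteoglycans, went from 0.525 to 20.2 RPKM, the proteoglycan of the cardiac jelly Vcan from 16 to 102, the fibrillin Fbn1 from 6.17 to 64.3 and Tnc from 1.79 to 23.4. Has2, the hyaluronan synthase of the heart cushions, was under 2-fold apart (23.7 against 25.4). Of 29 collagens 10 were higher and 1 lower (median 0.68), from Col18a1 (from 10.5 to 179) and Col1a1 (from 0.615 to 19.9) to Col4a1 (61.3 against 65.6), a basement membrane collagen under 2-fold apart. Of 10 laminins 4 were higher and none lower, with Lama4 (from 1.5 to 8.24) and Lamb2 (from 9.25 to 33.1).

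Of 30 enzymes that cross-link and cut the matrix, and their inhibitors, 9 were higher and none lower (median 0.62). The lysyl oxidases Loxl1 and Loxl2 went from 2.0696 to 33.8 and from 8.56 to 53.9 RPKM, although 46.1% of the 32-base words of Loxl2 lie in another gene as well. Of 14 integrins, the matrix receptors, 5 were higher and none lower, with Itga3 (from 0.495 to 8.88) and Itgb3 (from 0.0801 to 8.47), while Itgb1, the common partner, stood at 70.1 against 120.1. Of 27 ADAM and ADAMTS proteases 6 were higher and none lower (median 0.12), with Adam12 (from 0.0488 to 5.14) and Adamts1 (from 2.89 to 12.2), which cuts versican. Against this direction Fn1, the fibronectin that mesoderm migrates on, went from 715 to 246 RPKM, and the basement membrane genes Fbln2 (from 15.4 to 2.91) and Efemp1 (from 2.46 to 0.205) were lower. Of 21 other basement membrane genes 5 were higher and 3 lower. The endothelial markers given above moved with these lists, and Col18a1 and Lama4 are also known from vessels.

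Adhesion and transition genes did not move as a block. Cdh1, the epithelial cadherin, went from 31.5 to 9.3 RPKM, and Cdh2, the cadherin of mesenchyme and heart, 35 against 17.9, under 2-fold apart. Cdh11 was lower (from 37 to 12.6). While Snai1 was lower, Snai2 (from 1.18 to 10.3) and Zeb1 (from 5.74 to 19), further drivers of the transition, were higher, and Vim, an intermediate filament of mesenchyme, went from 199 to 486. Of 38 epithelial and junction genes 7 were higher and 4 lower (median 0.03), Cdh1 among the lower. The largest rises in this list were Pkp2 (from 4.14 to 42.4) and Jup (from 5.79 to 46), which encode desmosome proteins. Of 12 protocadherins 5 were higher and 3 lower. Pcdh8, Pcdh19 and Pcdh18 (from 25.5 to 3.8) were the lower members, all over 20 RPKM in MES, and Pcdh12, known from vessels, was higher (from 0.231 to 4.72). Over the members that reached 3 RPKM in MES or CP the sign of the median turned, from 0.62 to -0.0055, so the list has no direction. Of 7 claudins, proteins of tight junctions, Cldn6 (from 41.9 to 13.3) was lower and Cldn4 (from 3.16 to 10.9) and Cldn5, the claudin of vessels (from 0.0457 to 48.5), were higher. Gja1, a gap junction gene, went from 153 to 37.1 RPKM, while Gja4, of vessels, went from 0.402 to 8.4.

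Smooth muscle contractile genes were higher in 14 of 21 and lower in none (median 1.83). Besides Acta2 and Myl9, Des (from 2.35 to 90.8 RPKM), Tagln (from 2.26 to 43.2) and Nexn (from 3.25 to 32.4) led the list. Acta2 was at 131 RPKM in ESC and 1944 in CM, so MES was the stage with its lowest value. Tagln was also lowest in MES and highest in CM, at 134 in ESC and 408 in CM, but its value in CP lay below that in ESC. Exons of the opposite strand cover 67.9% of its exon bases. Of 46 nonmuscle actin, myosin and actin-binding genes, 9 were higher and none lower, with Lima1 (from 4.8 to 27.3) and Cnn2 (from 37.8 to 159.8), while Actb was under 2-fold apart (1554 against 1806).

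Genes of excitation and calcium handling were present before the CM stage. Of 39 calcium handling genes 12 were higher and 1 lower (median 0.65). The release channel Ryr2 went from 0.191 to 11 RPKM, a calcium pump, Atp2a3, from 0.904 to 12.9 and the exchanger Slc8a1 from 0.48 to 9.09. These 3 stood at 53.9, 3.1 and 79.6 in CM, so Atp2a3 alone of them was lower in CM than in CP. Of the blood markers 7 of 8 and of the endothelial markers 4 of 8 were also at least 2-fold lower in CM than in CP. The part of such cells in the Atp2a3 values was not tested. Among 34 sodium and calcium channel genes 7 were higher and 1 lower, with the pacemaker channel Hcn4 ahead of Trpm4 (from 2.18 to 12.2) and Cacna2d2 (from 2.15 to 9.25). Potassium channels were divided, 11 of 44 higher and 6 lower. Kcnh2, which carries a repolarizing current of the heart, went from 1.84 to 23.3 RPKM (552 and 7314 reads) and Kcng2 from 0.961 to 7.27. Kcnk9 was listed at 0 in each of the other 3 stages and at 5.52 in CP. Of 166 solute carriers outside the mitochondrial family, 16 were higher and 6 lower, shares near the 8.91% and 3.91% of all genes. The larger rises included Slc32a1 (from 0.306 to 14.8), Slc18a2 (from 0.866 to 10.4) and Slc30a3 (from 0.858 to 13.3). The glucose transporters Slc2a1 (146 against 148) and Slc2a3 (92.5 against 136) were under 2-fold apart.

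Caveolae and dystrophin complex genes were higher in 7 of 24 and lower in 1, led by Popdc2 and Ptrf (from 1.06 to 31.5), a coat protein of caveolae.

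Genes of energy metabolism that were higher included muscle isoforms and others. Of 32 glycolysis genes 9 were higher and 1 lower (median 0.52). Pgam2 and Eno3, the muscle forms of mutase and enolase, went from 2.4 to 129 and from 10.3 to 79.9 RPKM, and Pdk1, which holds pyruvate back from mitochondria, from 3.11 to 15.4. The general forms Pkm2 (522 against 530.4), Ldha (321 against 303) and Aldoa (213 against 273) were under 2-fold apart. Slc16a1, a lactate transporter, was the lower member (from 96.4 to 35.1). Among 18 creatine and muscle energy genes 7 were higher and none lower (median 0.81), with Ckb (from 12.4 to 45.8), the glycogen phosphorylases Pygb (from 8.27 to 29.6) and Pygl (from 3.35 to 14.1), Cox6a2 (0 to 5.24) and Cox7a1 (from 2.0 to 15.2). Cox6a2 and Cox7a1 are muscle forms of respiratory subunits, and with Cox4i2 (from 2.79 to 11.6) they were the 3 higher genes among 82 of respiratory complexes, whose median was -0.18. Of 23 TCA cycle genes 1 was higher, Idh2 (from 39.2 to 80.8), and none lower, below the shares of all genes. Of 31 fatty acid genes 3 were higher, near the 8.91% of all genes, and none lower, with Cd36, a fatty acid receptor (from 0.166 to 3.46), and Lpl (from 1.02 to 4.26). Of 25 hypoxia response genes 6 were higher and none lower, with Vegfa (from 12.2 to 26.4) and Egln1 (from 13.2 to 36.2).

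RNA of the mitochondrial genome had lower values in CP for all 25 genes in the table, 13 of them at least 2-fold lower (median -1.02). Of 16 transfer RNA genes 12 were at least 2-fold lower (median -1.32), of 2 ribosomal RNA genes mt-Rnr2 was (from 468 to 176 RPKM), and of 7 protein genes none was (median -0.48). mt-Tw, the gene of the tryptophan transfer RNA, went from 29.1 to 6.89 RPKM and rested on 117 and 29 reads. mt-Co1, at 1461 against 1336, and mt-Cytb, at 1193 against 816, were the most abundant. Transfer RNAs carry no poly(A) tail of their own and are shorter than the library fragments, so these values depend on longer precursors; that dependence was not tested. Also, 62.9% of the 32-base words of mt-Co1 occur in another annotated gene.

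Biosynthetic genes were lower as whole lists, mostly by less than 2-fold. All 31 genes of pentose phosphate and nucleotide synthesis in the table had lower values in CP (median -0.64), and 2 were at least 2-fold lower, Atic (from 50.4 to 18.5 RPKM) and Cad (from 98.8 to 41.6). Of 25 serine, glycine and one-carbon genes 6 were lower and none higher (median -0.59). Mthfd1, an enzyme of folate metabolism, went from 63.9 to 20.3, Gcat from 51.8 to 15.9, Cbs from 2.88 to 0.272 and Cth from 10.5 to 1.8. The 37 mitochondrial carriers held none at least 2-fold apart, with Slc25a4 at 135 against 203.

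Ribosome biogenesis genes were lower throughout the list. All 44 had lower values in CP, and 23 were at least 2-fold lower (median -1.01, range -1.43 to -0.24). Nolc1 (ENSMUSG00000015176), a scaffold of the nucleolus, went from 122 to 44.5 RPKM (18224 and 6960 reads), Heatr1 from 33.8 to 11.9, the pseudouridine synthase Dkc1 from 32.5 to 11.7, the methyltransferase Nop2 from 70.8 to 26.8 and the assembly factor Rrs1 from 57.2 to 22. Npm1 (91.4 against 45.9), an abundant nucleolar protein, was under 2-fold apart, and 28.9% of its 32-base words are shared with other genes. Of the MYC family of growth regulators, Myc (from 30.9 to 7.59 RPKM), Mycn (from 72.7 to 23) and Mycl1 (from 13.9 to 2.93) were all at least 2-fold lower. The E-box CACGTG stood in 7 of 38 promoters of ribosome biogenesis genes (18.4%) and in 6 of 36 of the DNA replication genes (16.7%), against 10.5% of all promoters and 9.14% of those of lower genes. CCGGAAGT stood in 26.3% and 16.7% of these 2 lists and in 8.13% of all.

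Small nucleolar RNA genes, whose products guide changes to ribosomal RNA, had lower values in 41 of 47 rows, 4 of them at least 2-fold (median -0.29). They were counted after the values were known. The libraries were made from poly(A) RNA of longer fragments, so these values need not stand for the mature small nucleolar RNAs. Cytosolic ribosomal protein genes had a median of -0.39 over 74, with 2 lower (Rps2 and Rpl27) and none higher. Both share words with other genes (48.5% and 24.7%), as copies of ribosomal protein genes do. Mitochondrial ribosomal protein genes had a median of -0.34 over 72, the aminoacyl tRNA synthetases -0.47 over 35 and the 48 proteasome genes -0.33, with 2, 1 and 0 at least 2-fold lower and none higher. Values were lower in CP for 68 of the 74 cytosolic ribosomal protein genes, 64 of the 72 mitochondrial ones, 32 of the 35 synthetases and 44 of the 48 proteasome genes. These shifts were thus spread over most members and mostly below 2-fold.

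Cell cycle genes were lower by a similar amount. All 44 DNA replication genes had lower values (median -0.63), with 4 at least 2-fold lower. Orc1 went from 12.1 to 4.16 RPKM, Mcm5 from 212 to 99.6 and Mcm10 from 18.8 to 8.5, while Mcm2 (137 against 100.4) was under 2-fold apart. TTTGGCGC or TTTCGCGC, words of E2F factors, stood in 9 of 36 promoters of the list (25.0%) and in 1.6% of all. Of 49 mitosis genes 48 had lower values (median -0.49), with Cdc20 at least 2-fold lower (from 131 to 58.6). Among cyclins and CDK inhibitors Ccnd1 and Ccne1 were lower (from 78.1 to 24.3 and from 38.2 to 13.7), Cdkn1c was higher, and Ccnd2 (61.3 against 110.1) and Ccnd3 (48.9 against 84.7) were under 2-fold apart, with higher values in CP.

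**Figure D5:**
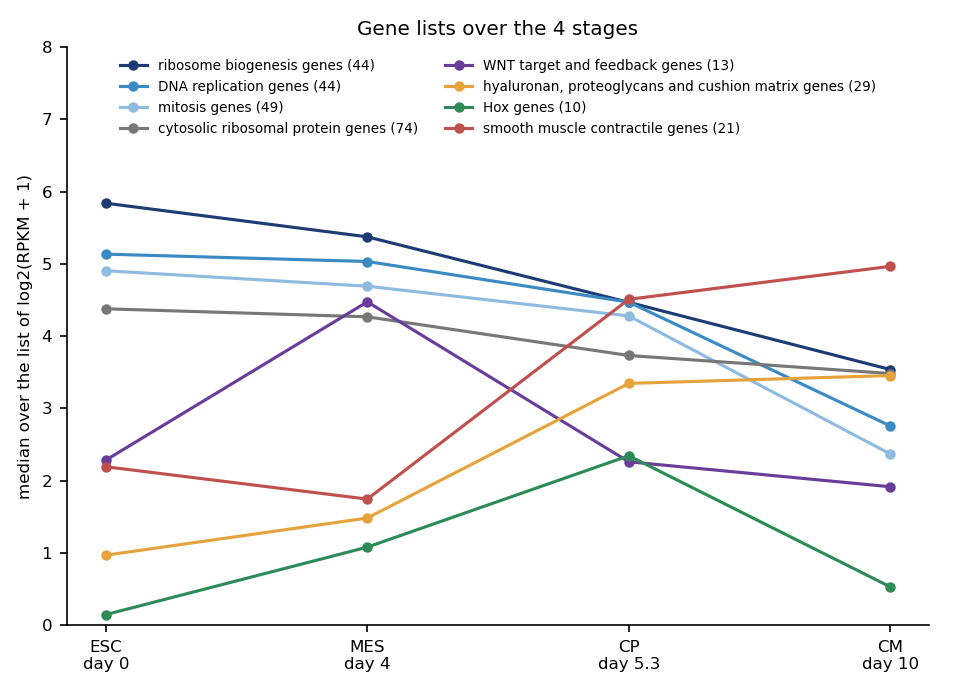
Median over the members of 8 gene lists of log2(RPKM + 1) at each of the 4 stages, which are set at equal steps (day 0, 4, 5.3 and 10), 1 line per list. Ribosome biogenesis falls from 5.37 in MES to 4.47 in CP and 3.54 in CM, WNT targets peak in MES (4.47), Hox genes peak in CP (2.34), and smooth muscle genes have their lowest median in MES (1.74).

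Of 64 heat shock and DnaJ genes 4 were higher and 3 lower, where 8.91% and 3.91% of all genes were. Hspb7 (from 0.0117 to 11 RPKM) and Hspb2 (from 0.125 to 21.7), small heat shock genes of muscle, were among the higher. Over 9 small heat shock genes, a set formed after the values were seen and in part outside that list, 5 were higher and none lower (median 1.04). Hsph1 (from 40.5 to 10.1), Hspd1 (from 109 to 32) and Hspe1 (from 60.2 to 18.2) were lower; the last 2 form the mitochondrial chaperonin and share 49.4% and 24.3% of their words with other genes. All 8 cytosolic chaperonin subunits had lower values (median -0.47), none by 2-fold. Of 131 F-box, Kelch, Trim and Asb genes, most of them adaptors of ubiquitin ligases, 18 were higher and 1 lower. Asb2, Trim55, Klhl30 (from 0.0419 to 11), Fbxl22 (from 3.45 to 36) and Klhl4 (from 0.392 to 9.25) led them. Trim28, a silencing cofactor, stood at 337 against 202, under 2-fold apart.

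Of 36 lysosome and endocytosis genes 5 were higher and none lower, with Stab1, a scavenger receptor of vessels and macrophages (from 0.064 to 17.1 RPKM), and Dab2, an adaptor of endocytosis (from 2.14 to 13.5). Of 34 unfolded protein response and ER genes 2 were lower, Sesn2 (from 31.1 to 13) and Sdf2l1 (from 27 to 12.8), and the chaperone Hspa5 stood at 184 against 142. Of 32 p53 target and apoptosis genes 3 were higher, with Bik, which promotes cell death (from 0.599 to 14), and 2 were lower, with Aen, a nuclease that p53 switches on (from 26.4 to 9.87). Of 25 iron, heme and oxygen genes Heph, a copper enzyme of iron export, was higher (from 1.13 to 6.87) and Tfrc, the transferrin receptor, lower (from 28.7 to 9.19). Of 21 interferon, antigen and complement genes Ifitm1, which marks early mesoderm and germ cell precursors as well, was lower (from 153 to 19.7) and Serping1 higher (from 1.11 to 8.79). Among all genes 8.91% were higher and 3.91% lower. The unfolded protein response, p53, iron and interferon lists held shares near or below these.

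Among 39 splicing and RNA regulators 8 were higher and 1 lower (median -0.13), where 8.91% and 3.91% of all genes were. Rbm20 (from 4.22 to 28.3 RPKM) and Rbm24 (from 13.9 to 76.1), which splice muscle transcripts, and Qk (from 0.368 to 2.9) and Mbnl1 (from 0.628 to 3.32) were higher. Ptbp1 (233 against 144), a broad repressor of muscle and neural exons, was under 2-fold apart. Of 24 BAF chromatin remodelling subunits, 2 were higher, Smarcd3 (from 13.9 to 41.7) and Dpf3 (from 0.448 to 1.99), both known from the heart, and Smarca4, the motor subunit, stood at 104 against 84.3. Of 52 Polycomb and histone methylation enzymes 3 were higher and 2 lower, with Ezh2 at 52.7 against 35.3. Cilium genes held 2 lower members of 41, Foxj1 (from 3.51 to 0.483) and Pkd1l1 (from 2.62 to 0.0668), which acts in the embryonic node, and a median of 0.00. The BAF, Polycomb and cilium lists held shares of genes at least 2-fold apart near or below those of all genes.

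The library protocol describes no step that marks the strand. In GENCODE M21, exons of a gene on the opposite strand cover at least 20% of the exon bases of further genes among those named by the size of their change or level: 46.7% of Bmp5, 23.4% of Ccnd1, 27.8% of Cfc1, 20.5% of Dll1, 20.1% of Fbn1, 25.7% of Fgf15, 22% of Gnas, 52.9% of Hoxb3, 27.2% of Hopx, 30.2% of Hspb2, 38.1% of Notum, 20.7% of Ptbp1, 38.4% of Rarb, 28.3% of Shh, 24.9% of Slc32a1, 48.2% of Smarcd3 and 21.8% of Tgm2. Words of 32 bases that also lie in another gene made up at least 20% in further cases: 22.6% of Actb, 24.3% of Cdc20, 46.8% of Gcat, 31.9% of Krt8 and 34.0% of Pkm2. Genes named after their values were seen were not checked for either. For the genes listed, the values may hold reads of another gene, and how the authors counted them is not given in the sources used here.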

How the data were processed

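Poly(A) RNA-seq was made from 2 libraries of each of 4 stages, which the series text calls biological duplicates. Alignment was to mm9 with Novoalign 2.07.00, per the submitters' processing notes. The authors deposited 1 RPKM value per gene and stage, per the file headers. Not given in the sources used here are the counter, the annotation, the filter on genes and how both libraries of a stage gave 1 value. Every gene of the table exceeds 1 RPKM in at least 1 stage. The values were used as deposited, and the difference was log2(RPKM + 1) with a pseudocount of 1 RPKM. Calculations were made with Python 3.11.15, numpy 2.4.6, pandas 2.3.3 and scipy 1.17.1, and the counting was tested on simulated data.

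RPKM of low genes step by whole reads, and from these steps whole reads were recovered for 12967 genes (95.8%, tolerance 5e-07), as the smallest numbers that give all 4 values. The estimated depths were 75.3 M, 62.0 M, 64.8 M and 88.5 M reads in ESC, MES, CP and CM, and they rest on exon lengths of GENCODE M21, since no gene lengths come with the values. With 1 value per stage no count test was made.

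Described were 104 gene lists with 2916 genes in the table. The comparison, the lists, the motifs and the rules were chosen with earlier results of these data known. Named genes were the 25 largest changes in each direction outside the sarcomere, endothelial and blood lists, without clone and model names and histone genes; of each other list up to 5 members with the largest difference among those at least 2-fold apart and, of the rest, up to 3 members ranked by mean RPKM; members of a class set side by side; and genes whose promoter is printed. Outside the first 2 parts of this rule, and so chosen after their values were seen, were Airn, Cdh11, Dkk1, Dnmt1, Dnmt3a, Dnmt3b, Efemp1, Flrt2, Furin, Grb10, Hoxb2, Igf1r, Igfbp2, Igfbp4, Irx3, Jag2, Meg3, Mest, Mycl1, Mycn, Nodal, Phlda2, Pygb, Sfrp2, Slc16a1, Tbx20, Tet2, Tet3, Vegfa, Vim, Wnt3a, Wnt5b, mt-Rnr2 and the microRNA genes. A few genes are not reported here.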

Additional observations from a re-analysis of the deposited data

How the results depend on the processing

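Counts of genes at least 2-fold apart followed the pseudocount and the fold asked for. Against 1207 higher and 529 lower genes, a pseudocount of 0.1 RPKM gave 1889 and 942, and a minimum of 4-fold gave 371 and 118. Scaling each stage to a sum of 1000000 gave 1818 higher genes and 716 lower ones, since it lifts the values against the pseudocount. A pseudocount of 0.5 RPKM, a minimum of 3 RPKM in MES or CP, quantile normalization and centring on the median kept both counts within 1.5 times, between 986 and 1497 higher and 432 and 719 lower. The higher share of genes at least 2-fold apart was 69.5%, and 61.8% to 76.0% over the alternatives. Of 208 counts of higher or lower members of a list, 154 stayed within 1.5 times with a pseudocount of 0.1 RPKM, 184 with 0.5 RPKM, 85 with 4-fold, 165 with the scaled sum, 180 with quantile normalization and 194 with centring, as did 191 of 206 with the minimum of 3 RPKM. Of 37 lists with a median of at least 0.5 in size, all kept its sign under each alternative, except protocadherins at -0.0055 with the minimum of 3 RPKM. Of the medians of all lists, up to 12 of 104 took the other sign under an alternative, and each of these, protocadherins apart, was under 0.5 in size. Motif shares fell with a window of 100 bases before to 50 after the start, to 4.84% of lower and 3.18% of higher genes for LEF/TCF words and 3.40% of all.

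No paired analysis was possible because the table holds 1 column per stage and none per library, and for the same reason no library could be left out. The spread between the 2 libraries of a stage is therefore unknown, and no difference given above has been set against it. Depth limits the low values: 3 reads on a 2 kb gene equal 0.0242 RPKM in MES, and mt-Tw rests on 117 and 29 reads. MicroRNA rows under 1 RPKM rest on few reads, since these genes are far shorter than 2 kb. Genes under 1 RPKM at every stage were not analysed here, so families such as Hox genes are covered in part. Among genes at low levels elsewhere, this limit can favour those that are high in CP.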

Other observations

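Of 22 histone genes named Hist, 1 was at least 2-fold higher and 2 were lower (median -0.15), where 8.91% and 3.91% of all genes were. These are values of poly(A) RNA, and most histone messages carry no poly(A) tail. All 5 host genes of small nucleolar RNAs named Snhg or Gas5 had lower values in CP, 1 of them at least 2-fold (median -0.46).

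Of 6 neural and neural crest markers present 1 was higher, Pax6 (0.0195 against 4.21 RPKM), and 1 was lower, Tubb3 (7.28 against 0.527), with summed levels of 21.5 RPKM in MES and 23.4 in CP. Of 11 trophoblast and extraembryonic markers 3 were higher, among them Plac1 (1.81 against 5.5) and Ttr (0.158 against 1.91), and 2 were lower, Cdx2 and Hand1, with summed levels of 234 and 165 RPKM. No list of these cell types moved in 1 direction.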
